A study of Mus musculus with 12 samples.

Results

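A set of 10 chemokine genes of the injured mouse kidney are described here across 12 RNA sequencing libraries. They were taken by name from the deposited table of gene counts, and all 10 were found among its 55487 gene identifiers. Cxcl1 and Cxcl2 draw neutrophils, Ccl2 and Ccl7 draw monocytes, and Ccl5, Cxcl9 and Cxcl10 draw T cells and NK cells. Cxcl16 and Cx3cl1 are made as membrane-anchored proteins, and Cxcl12 is the homeostatic chemokine of the set. The libraries were made from total RNA of kidney cortex and fall into 4 groups of 3. Control mice carried floxed Gfer alleles, the gene for augmenter of liver regeneration (ALR), with no Cre, and the labels give them as WT. KO mice carried the same floxed alleles with Ggt1-Cre, which deletes in the proximal tubule and not in other kidney cells, and the labels give them as ALR knockdown. Control and KO kidneys were sham treated, and Control-IR and KO-IR kidneys had 22 min of bilateral ischemia followed by 24 h of reperfusion. The mice were on a C57BL/6 background and 6 to 8 weeks old.

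Chemokines are small secreted proteins that bind G protein-coupled receptors on leukocytes and guide them into tissue. After ischemia the tubule and its resident macrophages release neutrophil- and monocyte-attracting chemokines early, and the interferon-inducible Cxcl9 and Cxcl10 call in T cells and NK cells through Cxcr3. Cx3cl1 and Cxcl16 hold leukocytes at the cell surface until proteases shed them, and Cxcl12 keeps Cxcr4-bearing cells in place.

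The libraries held 12165089 to 23123693 counts, with a count in 20416 to 22210 genes. Gfer, the floxed gene, was not lower in the knockouts: it had 9.97 to 17.1 counts per 1000000 counts (CPM) in KO against 11.4 to 14.4 in Control, and 21.6 to 22.8 in KO-IR against 15.3 to 20.0 in Control-IR. Whether counts over the whole gene in whole cortex miss a deletion of some exons in one cell type was not tested. The knockout label was therefore not checked by this gene. The authors report lower ALR expression in knockout than in control kidneys. Injury was plain in the tubular injury gene Havcr1 (KIM-1), at 1.10 to 4.59 CPM without ischemia, 381 to 2107 in Control-IR and 2262 to 3932 in KO-IR. The proximal tubule markers marked the tissue, with summed levels of 12694 to 14380 CPM in the 6 sham libraries. Control libraries 1 and 2 held 22402 and 19755 counts of Xist and no counts of 4 Y-linked genes, while the other 10 libraries held at most 11 Xist counts and 3109 to 5251 Y-linked counts. Control was therefore the only group with both sexes, and in each comparison with it sex and group are partly confounded. In whole cortex, a lower level of a gene can come from fewer cells that make it or from less RNA in each cell, and these cannot be told apart.

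Each level below is given as CPM after TMM scaling, and each change as a log2 fold change with its standard error (SE) from edgeR's quasi-likelihood test with Benjamini-Hochberg adjustment over all tested genes. A gene is called higher or lower at an adjusted p under 0.05. With 3 libraries against 3, an exact permutation test of a single gene cannot go below p = 0.1, so calls rest on the spread shared across genes. A gene that passed the count filter through 1 group alone had to be higher in that group, and its call is then no support for the direction. This was so for Cxcl2, Ccl7 and Ppbp in Control-IR against Control. It was also so for Cxcl2, Ccl2, Cxcl9, Ppbp, Il6 and Ciita in KO-IR against KO. In KO-IR against Control-IR it was so for Ccl7, Ccl4, Ccl12, Cx3cr1, Mmp12 and Ciita.

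**Figure D1:**
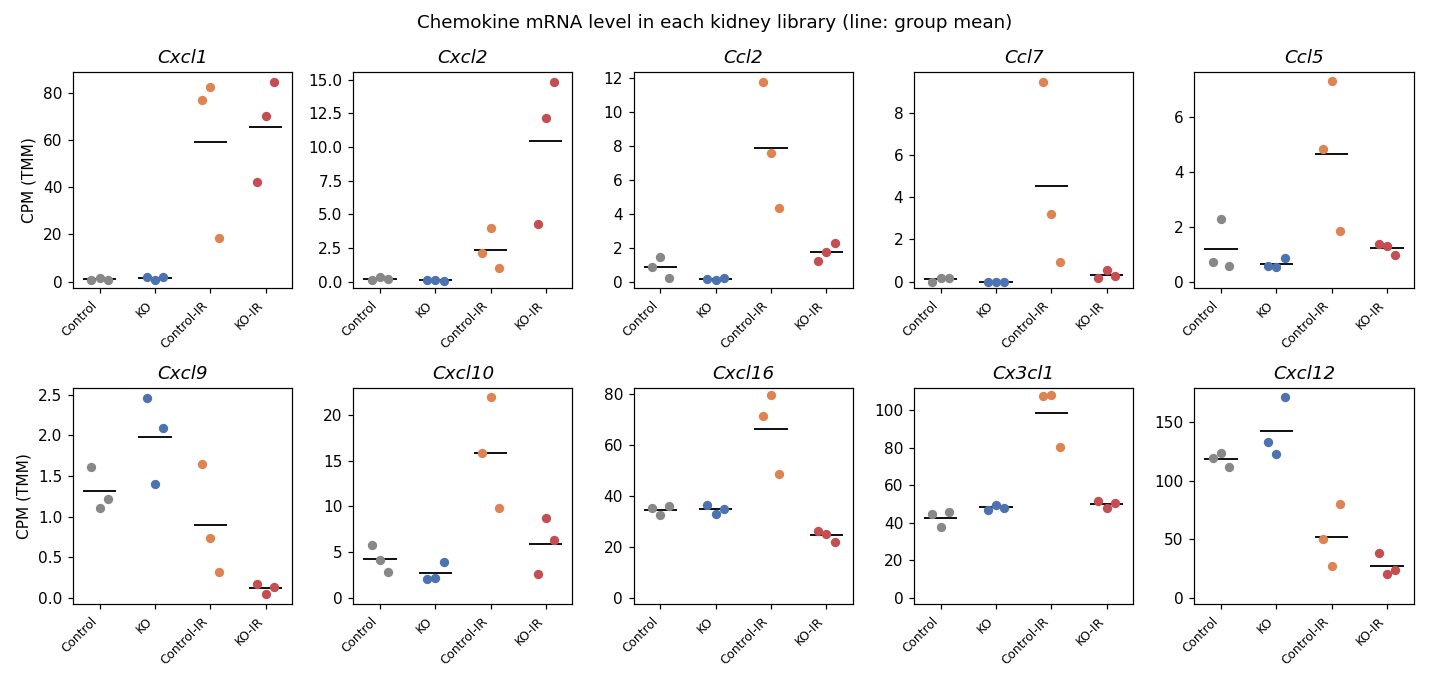
Level of each of the 10 chemokine genes by library, as CPM on a linear axis of its own, in the groups Control, KO, Control-IR and KO-IR (3 points each; the bar is the group mean). Cxcl1 reached 18.5 to 84.6 CPM in both injured groups, while Ccl2 lay at 4.36 to 11.8 CPM in Control-IR and at 1.198 to 2.26 in KO-IR.

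In sham kidneys, the levels per kilobase of exon put Cxcl12, Cxcl16 and Cx3cl1 far above the inflammatory chemokines. The mean level in Control was 14.5 CPM per kb for Cxcl12, 11.5 for Cxcl16 and 10.9 for Cx3cl1, and the next gene, Cxcl10, was at 1.87 CPM per kb. Cxcl12 lay above the other genes without overlap, while the ranges of Cxcl16 and Cx3cl1 overlapped. In Control, Cxcl1 and Cxcl2 were near the bottom of the order, at 0.483 and 0.0923 CPM per kb. In KO, Cxcl1 was at rank 5 with 0.810 CPM per kb and Cxcl2 at rank 9 with 0.0476. After ischemia Cxcl1 had the highest mean level in both genotypes, with 31.6 CPM per kb in Control-IR and 35.0 in KO-IR. Its range in Control-IR, 9.85 to 43.8 CPM per kb, overlapped those of Cx3cl1 and Cxcl16, which were above it in Control-IR library 4, while in KO-IR it lay above both without overlap. The order below it differed by genotype. In Control-IR it ran from Cx3cl1 at 25.2 CPM per kb through Cxcl16 at 22.0 to a cluster of Cxcl10, Ccl2, Cxcl12, Ccl7 and Ccl5 between 4.85 and 7.04, whose ranges all overlapped, with Cxcl2 at 1.14 and Cxcl9 last at 0.298. In KO-IR Cxcl2 stood at 5.04 CPM per kb, behind Cx3cl1 at 12.7 and Cxcl16 at 8.11, and its range overlapped those of Cxcl12 at 3.37 and Cxcl10 at 2.61. Ccl2, Ccl5 and Ccl7 followed at 1.52, 1.26 and 0.401 CPM per kb, and Cxcl9 was again last, at 0.0381.

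Cxcl1, Cxcl2, Cxcl9 and Cxcl10 lie in pairs on chromosome 5, and their promoters are shown because the pairs draw different leukocytes, neutrophils for the first and T cells and NK cells for the second. Cxcl1 (chr5:90891241-90893115, plus strand, GRCm38) and Cxcl2 (chr5:90903871-90905938, plus strand) are neighbours, as are Cxcl9 (chr5:92321347-92328079, minus strand) and Cxcl10 (chr5:92346638-92348889, minus strand). The windows below hold the 250 bases before the RefSeq start of each gene on GRCm38.p6, at chr5:90890995-90891244, chr5:90903649-90903898, chr5:92328080-92328329 and chr5:92348890-92349139. Capitals mark matches to the NF-kB (kappa-B) consensus and to a GAAA repeat with any 2 bases between its copies, a spacing found in interferon-stimulated response elements, both searched on either strand.

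Cxcl1: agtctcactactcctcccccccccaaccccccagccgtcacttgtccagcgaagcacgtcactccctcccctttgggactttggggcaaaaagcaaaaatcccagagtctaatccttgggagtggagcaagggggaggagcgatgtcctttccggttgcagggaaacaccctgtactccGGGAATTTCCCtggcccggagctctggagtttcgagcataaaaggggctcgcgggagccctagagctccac

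Cxcl2: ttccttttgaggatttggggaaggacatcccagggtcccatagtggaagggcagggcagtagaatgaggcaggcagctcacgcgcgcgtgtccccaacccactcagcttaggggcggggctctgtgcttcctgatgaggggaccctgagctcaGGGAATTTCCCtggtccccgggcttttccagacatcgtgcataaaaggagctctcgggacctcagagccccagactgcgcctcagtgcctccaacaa

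Cxcl9: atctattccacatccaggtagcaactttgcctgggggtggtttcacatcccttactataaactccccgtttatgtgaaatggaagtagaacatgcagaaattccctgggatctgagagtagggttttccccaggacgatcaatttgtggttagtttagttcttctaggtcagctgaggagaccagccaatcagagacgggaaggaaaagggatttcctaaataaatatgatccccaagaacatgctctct

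Cxcl10: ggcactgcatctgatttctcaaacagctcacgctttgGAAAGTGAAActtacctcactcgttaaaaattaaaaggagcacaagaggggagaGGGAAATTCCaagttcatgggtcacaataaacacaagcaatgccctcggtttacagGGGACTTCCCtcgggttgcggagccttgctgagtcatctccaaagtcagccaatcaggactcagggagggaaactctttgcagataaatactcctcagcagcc

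The Cxcl1 and Cxcl2 windows each held the same 11-letter stretch, in which a kappa-B match on the plus strand overlaps one on the minus strand, beginning 71 bases before the start in Cxcl1 and 97 bases before it in Cxcl2. Cxcl10 held kappa-B matches beginning 159 and 103 bases before its start and a GAAA repeat beginning 213 bases before it. The Cxcl9 window held neither motif. Among 32851 RefSeq windows of the same length, 3.90% held the kappa-B consensus and 2.98% held the GAAA repeat. The windows of Cxcl12 and Cx3cl1 held neither. A match describes letters in the window and no bound factor. Windows for the other 4 genes, Ccl2, Ccl7, Ccl5 and Cxcl16, were not used here.

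The neutrophil-attracting genes Cxcl1 and Cxcl2 rose with injury in both genotypes, and Cxcl2 reached higher levels in KO-IR than in Control-IR. Cxcl1, the mouse ligand of Cxcr2 also known as KC, was at 0.754, 1.41 and 0.554 CPM in Control libraries 1, 2 and 3 and at 1.96, 0.700 and 1.90 CPM in KO libraries 1, 2 and 4. It was at 76.9, 82.2 and 18.5 CPM in Control-IR libraries 1, 2 and 4 and at 42.1, 70.2 and 84.6 CPM in KO-IR libraries 2, 3 and 4. Every injured library lay above every sham library, and the ranges of the injured genotypes overlapped. The injury change was 6.05 (SE 0.68, adjusted p = 0.00440) in Control mice and 5.45 (SE 0.35, adjusted p = 7.47e-07) in KO mice on the log2 scale. Between KO-IR and Control-IR the difference in Cxcl1 was 0.15 (95% interval -0.98 to 1.28, adjusted p = 0.827), an interval that holds a 2-fold difference in the upward direction. Its sign turned to -0.07 with total-count scaling and to -0.28 without Control-IR library 4, the library with the lowest Cxcl1 of that group. It was -0.07 without KO-IR library 4.

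Cxcl2, also known as MIP-2, was rare in sham kidneys, with 2, 5 and 3 counts in Control and 2, 2 and 1 in KO. It was at 2.10, 3.97 and 1.01 CPM in Control-IR and at 4.28, 12.2 and 14.8 CPM in KO-IR. The lowest KO-IR library was above the highest Control-IR library, but only by a small margin. The injury change was 3.63 (SE 0.65, adjusted p = 0.0152) in Control mice. In KO mice it was 6.63 (SE 0.62, adjusted p = 8.85e-06), and the ratio of summed counts, 553 against 5, was 113-fold with an exact counting interval of 48.1 to 349. The difference between KO-IR and Control-IR was 2.14 (SE 0.55, adjusted p = 0.0145), a 4.40-fold higher level. That call was lost without Control-IR library 1 (2.04, adjusted p = 0.0541), without KO-IR library 3 (2.03, adjusted p = 0.05) and without KO-IR library 4 (1.81, adjusted p = 0.0608). The rise in Control mice was not called without Control library 1 (adjusted p = 0.0691) or Control library 2 (adjusted p = 0.0564).

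Cxcl2 relative to Cxcl1, a ratio of counts within each library that no scaling enters, ran from 0.0273 to 0.0548 in Control-IR and from 0.102 to 0.175 in KO-IR. The ranges did not overlap. In the sham libraries the ratio was 0.133 to 0.300 in Control and 0.0323 to 0.154 in KO, with the order of the genotypes the other way and an overlap, on 1 to 5 counts of Cxcl2 per library. The ratio was chosen after its values were seen and is given with no test. Among other Cxcr2 ligands, Cxcl3 and Cxcl5 had 0 counts in all 6 sham libraries. Cxcl3 had 5, 15 and 0 counts in Control-IR and 17, 73 and 69 in KO-IR, a difference of 3.14 (SE 0.80, adjusted p = 0.0140). Cxcl5 had 44, 42 and 9 counts in Control-IR and 15, 95 and 88 in KO-IR, and its difference of 1.23 (SE 0.59, adjusted p = 0.120) did not pass the test. In KO mice, injury put Cxcl3 at least 54.1-fold and Cxcl5 at least 67.4-fold above a floor of 3 counts over the sham group. Ppbp, the platelet chemokine whose processed form binds Cxcr2, had 2 to 9 counts in the sham libraries, 37, 90 and 11 in Control-IR and 19, 55 and 39 in KO-IR. Its injury change was 3.07 in Control mice (adjusted p = 0.0372) and 2.77 in KO mice (adjusted p = 3.93e-04). In both comparisons Ppbp passed the filter through the injured group alone, so these calls are no support for the direction. Its difference between the injured genotypes was -0.09 (95% interval -1.45 to 1.27, adjusted p = 0.913).

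Over all genes tested between KO-IR and Control-IR, 46.9% were called, 22.5% higher and 24.4% lower. Of the 9 chemokines that could be tested, 1 was called higher and 6 lower, with a median log2 difference of -1.40 beside -0.005 over all genes. Under total-count scaling the all-gene split moved from 3444 higher and 3725 lower to 1978 higher and 5080 lower. The ranges of KO-IR and Control-IR did not overlap for 8 of the 10 chemokines, with KO-IR above in 1 and below in 7, beside 29.6% and 29.1% of all genes.

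**Figure D2:**
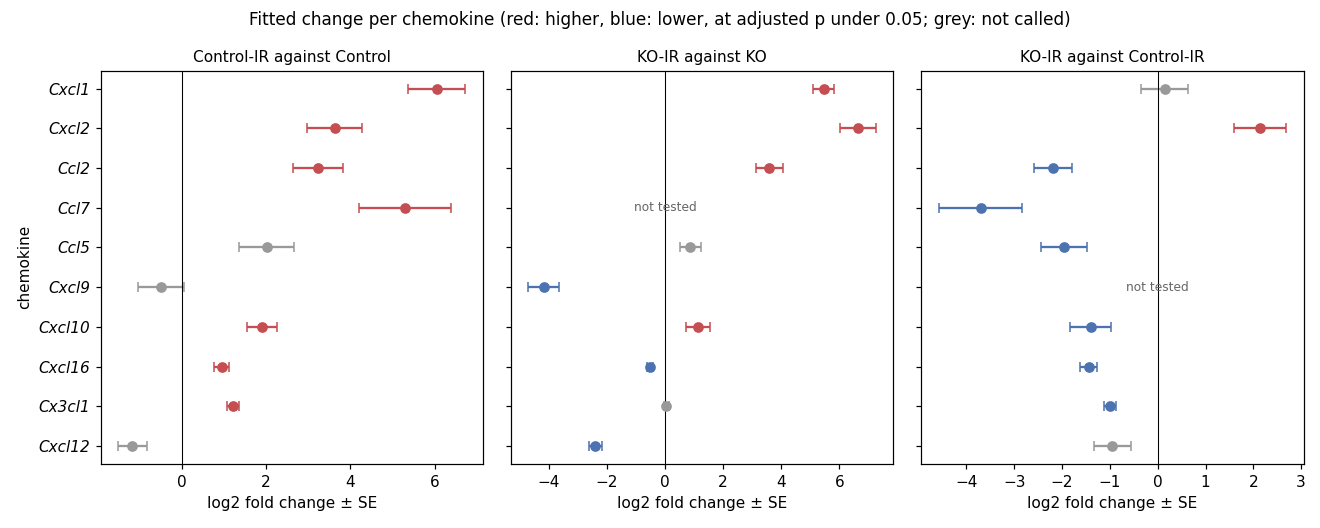
Log2 fold change of each chemokine gene with its SE, for Control-IR against Control, KO-IR against KO and KO-IR against Control-IR (edgeR quasi-likelihood fits; red points are called higher and blue points lower at an adjusted p under 0.05, grey points are not called, and genes below the count filter are marked as not tested). Between the injured genotypes Cxcl2 lay at 2.14 and Ccl7 at -3.70.

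The monocyte-attracting genes Ccl2 and Ccl7, ligands of Ccr2, rose with injury in Control mice and stayed well below those levels in KO-IR. Ccl2, or MCP-1, was at 0.854, 1.47 and 0.222 CPM in Control and at 0.126, 0.108 and 0.184 CPM in KO. It was at 11.8, 7.57 and 4.36 CPM in Control-IR and at 1.198, 1.74 and 2.26 CPM in KO-IR. None of the 4 groups overlapped with another except KO-IR with Control, since Control library 2 exceeded the lowest KO-IR library. The injury change was 3.24 (SE 0.59, adjusted p = 0.0160) in Control mice and 3.58 (SE 0.47, adjusted p = 9.07e-05) in KO mice. The difference of the injury responses was 0.36 (95% interval -1.45 to 2.17, adjusted p = 0.768), and its sign turned with sex in the fit (-1.525), in the libraries that lack Xist (-1.532) and without Control library 2 (-0.25). The level in KO-IR was 4.55-fold lower than in Control-IR (log2 difference -2.19, SE 0.40, adjusted p = 0.00371), a call that held with each library left out in turn. The rise in Control mice was not called without Control library 1 (3.26, adjusted p = 0.0706) or Control-IR library 1 (2.82, adjusted p = 0.0540).

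Before injury, Ccl2 had 45 counts summed over Control and 7 over KO, a 6.01-fold lower level in KO with an exact counting interval of 2.69 to 15.8, which covers counting error only. Most of the Control counts came from libraries 1 and 2, with 17 and 24, which are the libraries that carry Xist, and library 3 had 4. Ccl2 was below the count filter in the comparison of KO with Control. Without Control library 3 it passed the filter and was called lower (-2.99, SE 0.55, adjusted p = 0.0102), in a fit whose only Control libraries were female. It also passed the filter without KO library 1, 2 or 4, and was not called in these fits (adjusted p = 0.301, 0.506 and 0.385). In all of these it passed through the Control libraries alone, where it is high, so the call is no support for the direction. The share of sex in this difference was not tested.

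Ccl7, or MCP-3, had 0, 3 and 3 counts in Control and none in KO. It had 212, 61 and 15 counts in Control-IR, or 9.47, 3.19 and 0.949 CPM, and 2, 12 and 4 counts in KO-IR, or 0.171, 0.534 and 0.258 CPM. The injured genotypes did not overlap, and Control-IR itself spread over about an order of magnitude. The summed counts of 288 in Control-IR and 6 in Control gave a 45.4-fold ratio with an exact counting interval of 20.6 to 125, and edgeR's change was 5.29 (SE 1.10, adjusted p = 0.0217). Ccl7 was at least 6.13-fold higher in KO-IR than a floor of 3 counts over KO, and it was not tested there. The difference between KO-IR and Control-IR was -3.70 (SE 0.87, adjusted p = 0.0103) and was called with each library left out. The rise in Control mice was not called without Control library 1 (4.68, adjusted p = 0.0794), Control library 2 (5.76, adjusted p = 0.0770) or Control-IR library 1 (4.13, adjusted p = 0.0528). Ccl12, another Ccr2 ligand of mice, had 92, 66 and 29 counts in Control-IR and 0 in every KO-IR library, at least 54.0-fold lower against a floor of 3 counts over the group (adjusted p = 9.34e-04).

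Of the T-cell- and NK-cell-attracting genes, Ccl5 and Cxcl10 were lower in KO-IR than in Control-IR, and Cxcl9, at 1 or 2 counts per KO-IR library, was below the count filter in that comparison. Ccl5, or RANTES, was at 0.704, 2.26 and 0.554 CPM in Control, 0.568, 0.538 and 0.859 in KO, 4.82, 7.31 and 1.83 in Control-IR and 1.37, 1.29 and 0.967 in KO-IR. Control library 2 overlapped Control-IR, and the injured genotypes did not overlap. Its difference between KO-IR and Control-IR was -1.95 (SE 0.48, adjusted p = 0.0125), and it was not called without KO-IR library 4 (-1.81, adjusted p = 0.0571). The injury changes in Ccl5 were 2.02 (SE 0.65, adjusted p = 0.0653) in Control mice and 0.87 (SE 0.37, adjusted p = 0.0579) in KO mice, neither past the threshold. The former was called without Control-IR library 4 (2.39, adjusted p = 0.0265), with DESeq2 (adjusted p = 0.00919), with no count filter (0.0223), in the fit to all 12 libraries (0.0162) and with sex in the fit (3.06, adjusted p = 0.0424).

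Cxcl10, or IP-10, is induced by interferons and by NF-kB. It was at 5.78, 4.10 and 2.77 CPM in Control and at 2.02, 2.21 and 3.93 CPM in KO. After injury it was at 15.8, 21.9 and 9.80 CPM in Control-IR and at 2.57, 8.77 and 6.32 CPM in KO-IR. Control-IR lay above all other libraries, while KO-IR overlapped both sham groups. The injury change was 1.91 (SE 0.35, adjusted p = 0.0165) in Control mice and 1.14 (SE 0.42, adjusted p = 0.0345) in KO mice. KO-IR was 2.64-fold below Control-IR (log2 difference -1.40, SE 0.42, adjusted p = 0.0275).

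Each of these Cxcl10 calls depended on single libraries. The rise in Control mice was not called without Control library 2 (adjusted p = 0.0692) or Control-IR library 1 (adjusted p = 0.0532). The rise in KO mice was lost without KO library 1 (0.96), KO library 2 (1.002), KO-IR library 3 (0.73) or KO-IR library 4 (1.10), with adjusted p between 0.0808 and 0.178, and in the libraries that lack Xist (1.12, adjusted p = 0.0517). The difference between the injured genotypes was lost without Control-IR library 1 (-1.42, adjusted p = 0.0648), Control-IR library 2 (-1.11, adjusted p = 0.0596) or KO-IR library 4 (-1.43, adjusted p = 0.0824). Cxcl10 shares 133 exon bases with Art3 on the opposite strand, and since no strand setting is given, reads there cannot be assigned to either gene. Art3 had 20 to 36 counts in the injured libraries.

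Cxcl9, or MIG, is the interferon-gamma-inducible ligand of Cxcr3. It was at 1.61, 1.10 and 1.22 CPM in Control, 2.46, 1.40 and 2.09 in KO, 1.65, 0.731 and 0.316 in Control-IR and 0.171, 0.0445 and 0.129 in KO-IR. In counts, KO-IR held 2, 1 and 2, against 39, 26 and 34 in KO, a 19.4-fold lower level with an exact counting interval of 8.03 to 61.0. All KO-IR libraries lay below all others. The injury change in KO mice was -4.18 (SE 0.52, adjusted p = 6.62e-05), and that in Control mice, -0.49 (SE 0.54, adjusted p = 0.537), did not pass the test. The responses themselves differed by -3.67 (SE 0.85, adjusted p = 0.00726). Cxcl9 was the only member of the 3 groups of inflammatory chemokines called lower with injury, and this was in KO mice alone. It passed the filter there through KO alone, so that call is no support for the direction. It was below the filter between KO-IR and Control-IR, where the summed counts of 5 and 56 gave a 9.70-fold lower level (exact counting interval 3.92 to 31.0), and Control-IR library 4 alone had 5 counts. It passed the filter in 4 fits with a library left out, in each through Control-IR alone, so these calls are no support for the direction. It was called lower without Control-IR library 4 (-3.46, adjusted p = 0.00708) and without KO-IR library 2 (-3.42, adjusted p = 0.0346), and not called without KO-IR library 3 (-2.58, adjusted p = 0.0740) or KO-IR library 4 (-3.24, adjusted p = 0.0564).

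Among 18 interferon-inducible genes listed with the chemokines, 17 were tested between KO-IR and Control-IR, and 16 were lower, 0 higher and 1 not called, with a median of -2.17, beside 46.9% of all genes called and 24.4% called lower. The leading genes were Ciita, the master regulator of MHC class II (-5.80), Ifit3 (-3.17), the guanylate-binding protein Gbp5 (-3.13) and the immunoproteasome subunit Psmb9 (-2.72), with adjusted p between 2.65e-04 and 0.00201. In KO mice, 13 of 16 tested genes fell with injury, 0 rose and 3 were not called, at a median of -1.23, beside 32.7% of all genes lower. Of the 13, Ciita passed the filter through KO alone, so its call is no support for the direction. In Control mice, 1 rose and 1 fell of 17 tested, beside 11.4% of all genes higher and 7.97% lower, and the median was -0.32. Before injury 0 of 17 tested genes were called between KO and Control, as were 0% of all genes, at a median of -0.75, and the summed level of the list was 237 to 529 CPM in Control and 149 to 215 in KO, without overlap, against 194 to 344 in Control-IR and 94.8 to 104 in KO-IR. The interferon-gamma gene itself, Ifng, had at most 1 count in any library. In contrast, the 15 NF-kB-inducible genes differed little between the injured genotypes at the median, 0.10, with 3 higher, 1 lower and 11 not called, beside 22.5% of all genes higher. Those higher were Nfkbia (0.91), Birc3 (0.83) and Zc3h12a (0.74), and the adhesion molecule Vcam1 was lower (-1.35). All 14 NF-kB-inducible genes tested rose with injury in KO mice (median 1.48), beside 32.9% of all genes, and 11 of 14 rose in Control mice (median 1.34), beside 11.4% of all genes. Among the 14 in KO mice, Il6 had 0 counts in KO and passed the filter through KO-IR alone, so its call is no support for the direction. The all-gene medians lay between -0.012 and 0.011 in these comparisons.

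The membrane-anchored genes Cxcl16 and Cx3cl1 rose with injury in Control mice and did not rise in KO mice. Cxcl16, the ligand of Cxcr6 and a scavenger receptor for oxidized lipoprotein, was at 35.2, 32.6 and 36.0 CPM in Control and at 36.5, 33.0 and 35.0 CPM in KO. It was at 71.2, 79.4 and 48.6 CPM in Control-IR and at 26.4, 25.2 and 22.0 CPM in KO-IR. Control-IR lay above the sham libraries and KO-IR below them, with no overlap. The changes were 0.95 (SE 0.18, adjusted p = 0.0171) in Control mice and -0.52 (SE 0.10, adjusted p = 0.00161) in KO mice. The responses differed by -1.45 (SE 0.21, adjusted p = 5.60e-04). KO-IR was 2.72-fold below Control-IR (log2 difference -1.45, SE 0.18, adjusted p = 7.65e-04), a call that held with each library left out. The rise in Control mice was not called without Control library 1 (0.97, adjusted p = 0.0669), Control library 2 (0.92, adjusted p = 0.0699) or Control-IR library 1 (0.89, adjusted p = 0.0600). Cxcl16 shares 552 exon bases with Zmynd15 on the opposite strand, whose counts were 92 to 182 in Control-IR and 18 to 46 in KO-IR, against 769 to 1594 and 308 to 565 for Cxcl16.

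Cx3cl1, or fractalkine, the ligand of Cx3cr1, was at 44.8, 37.9 and 45.6 CPM in Control and at 47.1, 49.4 and 48.1 CPM in KO. It was at 108, 108 and 80.6 CPM in Control-IR and at 51.5, 47.9 and 50.5 CPM in KO-IR. The 3 KO-IR libraries overlapped KO, and Control-IR stood above every other library. The change was 1.22 (SE 0.15, adjusted p = 0.00574) in Control mice, called with each library left out, and 0.04 (95% interval -0.13 to 0.22, adjusted p = 0.644) in KO mice. The responses differed by -1.16 (SE 0.16, adjusted p = 4.61e-04), and KO-IR was 1.99-fold below Control-IR (log2 difference -0.99, SE 0.13, adjusted p = 8.77e-04). Of 7 proteases that cut chemokines, 4 were lower in KO-IR than in Control-IR, 0 higher and 3 not called, at a median of -0.58, beside 46.9% of all genes called and 24.4% called lower. They were the macrophage elastase Mmp12 (-2.84), Dpp4 (-1.55), cathepsin S, Ctss (-1.24), and the sheddase Adam17 (-0.58).

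Cxcl12, or SDF-1, was lower after injury in every injured library than in any sham library. It was at 119, 123 and 112 CPM in Control, 134, 123 and 172 in KO, 50.0, 26.9 and 80.1 in Control-IR and 38.6, 20.1 and 23.9 in KO-IR. The injured genotypes overlapped. The change was -1.17 (SE 0.34, adjusted p = 0.0505) in Control mice, just outside the threshold, and -2.40 (SE 0.22, adjusted p = 8.30e-06) in KO mice. The former was called without Control-IR library 2 (-0.84, adjusted p = 0.0405) or Control-IR library 4 (-1.61, adjusted p = 0.00963), and with DESeq2 (adjusted p = 0.00395), no count filter (0.0139), a filter of 10 counts in every library (0.0486) and the fit to all 12 libraries (0.0169). Between KO-IR and Control-IR the difference was -0.95 (95% interval -1.85 to -0.04, adjusted p = 0.0792), and it was called without Control-IR library 2 (-1.27, adjusted p = 0.00783). It was also called with DESeq2 (adjusted p = 0.0246), total counts (0.0375), no count filter (0.0253), the fit to all 12 libraries (0.0305), sex in the fit (0.0343) and in the libraries that lack Xist (0.0466), at -0.93 to -1.14. With the other single libraries left out it was not called, at -0.51 to -1.245. Its receptors Cxcr4 (0.17, adjusted p = 0.645) and Ackr3 (0.04, adjusted p = 0.891) did not pass the test in that comparison.

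Counted over the members, 7 of 10 rose with injury in Control mice, 0 fell and 3 were not called, beside 11.4% of all genes higher and 7.97% lower, 19.4% in either direction. These counts over all genes moved when single libraries were left out, with 320 genes higher and 59 lower without Control library 1, 343 and 70 without Control library 2, 616 and 217 without Control-IR library 1 and 1009 and 626 without Control-IR library 2. Without the first 3 of these, 3 members were called higher in each fit. In place of TMM, total-count scaling gave 2346 genes higher and 766 lower, against 1778 and 1241. The ranges of the groups did not overlap for 8 members, 7 above and 1 below, beside 21.3% and 22.3% of all genes. In KO mice, 4 rose, 3 fell and 2 were not called among 9 tested, beside 32.9% of all genes higher and 32.7% lower, 65.5% in all, and the ranges did not overlap for 8 members, 5 above and 3 below, beside 35.9% and 35% of all genes. In the fit to the libraries that lack Xist, which leaves 1 Control library, the rise in Control mice was not called for Cxcl2 (adjusted p = 0.07), Ccl7 (adjusted p = 0.0932), Cxcl10 (adjusted p = 0.0556) and Cxcl16 (adjusted p = 0.0532), and that of Ccl5 was called (3.04, adjusted p = 0.0441). The lone Control library is assumed there to vary like the other groups. With sex in the fit to all 12 libraries, the rises of Cxcl2 (adjusted p = 0.05) and Ccl7 (adjusted p = 0.0753) in Control mice were not called. The members' median was 1.96 in Control mice and 0.87 in KO mice. The injury responses differed for 3 of 10 members, Cxcl9, Cxcl16 and Cx3cl1, all 3 lower in KO mice, beside 30.6% of all genes called and 16.4% called lower. Total-count scaling moved the all-gene split of that difference from 2305 higher and 2648 lower to 1591 and 2997. With sex in the fit it was 1437 and 1796, and in the libraries that lack Xist 1111 and 1428. These 3 calls held with each of the 12 libraries left out. The difference in the Cxcl2 response, 3.004 (SE 1.21, adjusted p = 0.0777), and in the Cxcl12 response, -1.205 (SE 0.45, adjusted p = 0.0618), did not pass the test. Each of these was called without Control-IR library 2 (3.57 and -1.53, adjusted p = 0.0271 and 0.00561) and without KO-IR library 2 (3.37 and -1.52, adjusted p = 0.0290 and 0.0271), with DESeq2 (adjusted p = 0.0175 and 0.0277) and with no count filter (adjusted p = 0.0449 and 0.0166).

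Without injury, edgeR called 0% of genes, 0 of 15291, between KO and Control, with 2573 at an unadjusted p under 0.05, while DESeq2 called 191 higher and 267 lower. Without Control library 3, the Control library that lacks Xist, edgeR called 1091 higher and 839 lower. The 7 chemokines tested were not called, and Cxcl2, Ccl2 and Ccl7 were below the count filter. Their differences ran from -0.82 for Ccl5 (95% interval -2.16 to 0.52) to 0.74 for Cxcl1 (95% interval -0.41 to 1.90). The closest was Cxcl16 at 0.01 (95% interval -0.19 to 0.20), whose sign changed with total-count scaling and with sex in the fit. Cx3cl1 was higher in each KO library than in each Control library, by 0.17 (SE 0.09, adjusted p = 0.363). The groups did not overlap for Cx3cl1, above, and for Ccl2, below, beside 9.76% and 11.2% of all genes.

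Within each library, the balance of reads between the chemokine groups stood apart in KO-IR. These ratios were chosen after the values were seen and are given with no test. The reads of Cxcl1 and Cxcl2 per read of Ccl2 and Ccl7 were 3.67, 3.72 and 8.01 in the Control-IR libraries, in ascending order, and 33.9, 36.3 and 39.5 in KO-IR. Every KO-IR library lay above every Control-IR library, although KO, at 7.50 to 16.5, was already above Control, at 1 to 1.86, on 2 or 3 reads of Ccl2 per KO library. Reads of Cxcl1 and Cxcl2 per read of Ccl5, Cxcl9 and Cxcl10 were 1.63 to 3.55 in Control-IR and 8.15 to 13.4 in KO-IR, and 0.106 to 0.413 in the sham libraries. Those of Ccl2 and Ccl7 per read of the T- and NK-cell group lay closer together, without overlap, at 0.359 to 0.954 in Control-IR and 0.225 to 0.339 in KO-IR.

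**Figure D3:**
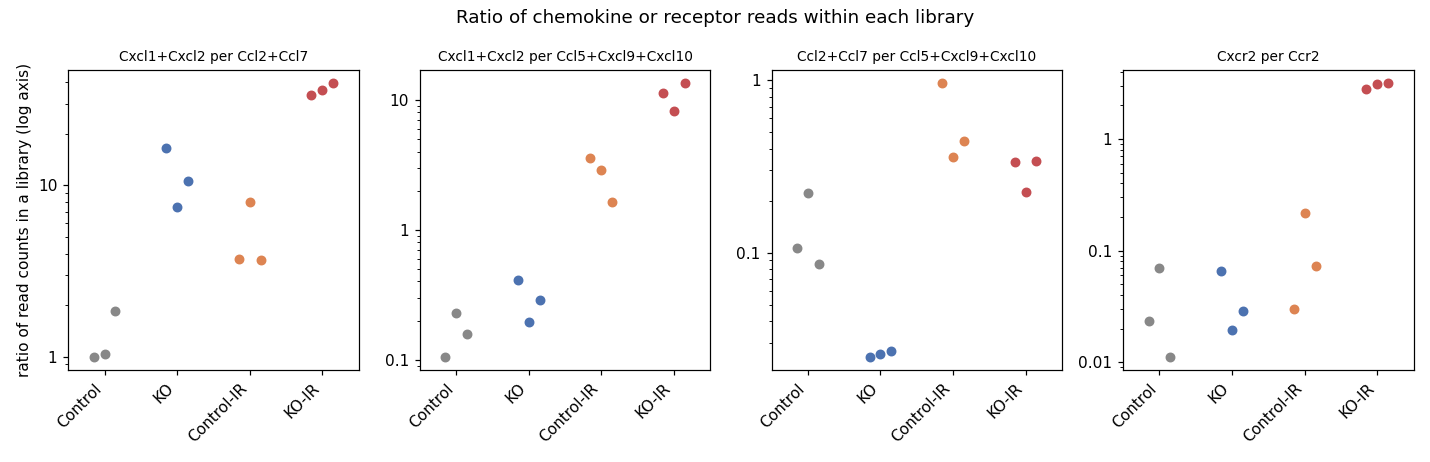
Ratios of raw reads of chemokine or receptor genes within each library, on log10 axes, by group (3 points each). The ratio of Cxcl1 and Cxcl2 to Ccl2 and Ccl7 was 33.9 to 39.5 in KO-IR against 3.67 to 8.01 in Control-IR.

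The receptors were read beside their ligands. Cxcr2, the receptor of Cxcl1 and Cxcl2, had 25, 72 and 10 counts in Control-IR and 42, 112 and 101 in KO-IR, a difference of 1.45 (SE 0.57, adjusted p = 0.0673) that did not pass the test. Ccr2, the receptor of Ccl2 and Ccl7, had 834, 329 and 137 counts in Control-IR and 15, 36 and 32 in KO-IR, 12.7-fold lower (log2 difference -3.67, SE 0.54, adjusted p = 0.00154). Cx3cr1 had 371, 171 and 161 counts in Control-IR and 0, 9 and 2 in KO-IR (-5.77, SE 0.57, adjusted p = 3.53e-04). In both of these the injured groups were far apart, and KO-IR was also below the sham libraries. Reads of Cxcr2 per read of Ccr2 ran from 0.0300 to 0.219 in Control-IR and from 2.80 to 3.16 in KO-IR. Cxcr6, the receptor of Cxcl16, had 50, 57 and 5 counts in Control-IR and none in KO-IR, at least 32.3-fold lower against a floor of 3 counts over the group, and was below the filter. Cxcr3, the receptor of Cxcl9 and Cxcl10, had 26, 24 and 6 counts in Control-IR and 2, 1 and 0 in KO-IR and was also below it.

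Over the receptor list, 9 of 23 genes were tested between the injured genotypes, with 0 higher, 3 lower and 6 not called, at a median of -0.42, beside 46.9% of all genes called and 24.4% called lower. The responses to injury differed for 6 of 12 tested receptors, all 6 lower in KO mice, at a median of -1.66, beside 30.6% of all genes called and 16.4% called lower. Among the 6, Cxcr6 and Xcr1 had 0 counts in KO-IR, and Cx3cr1 and Cxcr3 had the few given above. These receptors passed the filter through other groups, so their calls are no support for the direction. Over 27 other chemokines, 15 were tested, with 2 higher, 6 lower and 7 not called and a median of -0.70, beside 22.5% of all genes higher and 24.4% lower. They included the mucosal chemokine Ccl28 (-3.11) and the inflammatory chemokine Ccl4 (-2.59), both lower. With genes at 0 in a group set to their bound, none of these list medians between the injured genotypes moved.

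Markers of leukocytes moved with these results, and their counts of called genes stand beside 22.5% of all genes higher and 24.4% lower in KO-IR than in Control-IR. The summed level of 10 neutrophil markers was 10.4 to 41.5 CPM in Control-IR and 60.8 to 95.2 in KO-IR, beside 1.04 to 2.90 in the sham libraries, and 6 of 7 tested were higher in KO-IR, of which Ngp passed the filter through KO-IR alone. Among them the granule gene Camp was at 0 in Control-IR, and Ly6g had 3 counts in each KO-IR library. The summed level of 12 T- and NK-cell markers was 10.1 to 34.4 CPM in Control-IR and 1.03 to 2.71 in KO-IR, and Gzma, Gzmb and Ncr1 were at 0 in KO-IR. Of these, 6 passed the filter and were called lower, most of them through Control-IR alone, so that their direction was fixed by the filter and the count is no support for it. Control library 2, the highest sham library for Ccl5, also had the highest sham level of these markers, 17.9 CPM. Monocyte and macrophage markers overlapped, at 196 to 337 CPM in Control-IR and 170 to 272 in KO-IR, but 9 of 13 were lower and 2 were higher, Cd14 (2.59) and Cd68 (0.76). B-cell markers summed to 1.08 to 2.82 CPM in Control-IR and at most 0.356 in KO-IR. The part of these cells in the chemokine results was not tested.

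Markers of some kidney cells moved as well, beside the same 22.5% of all genes higher and 24.4% lower. Fibroblast and pericyte markers summed to 563 to 744 CPM in Control-IR and 153 to 265 in KO-IR, with 3 of 6 lower. Proximal tubule markers summed to 3626 to 8797 CPM in Control-IR and 2277 to 2876 in KO-IR, with 5 of 8 lower, and endothelial markers to 338 to 381 and 429 to 459 CPM, with 4 of 6 higher and 1 lower. Of the thick ascending limb markers, 2 of 3 were lower, at a median of -1.08. Of 4 collecting duct and 4 podocyte markers, 1 of each list was lower and 3 were not called. Red cell markers were at 96.3 to 243 CPM in Control-IR and 42.3 to 49.7 in KO-IR, with 5 of 6 lower. Whether these cells account for any chemokine level was not tested.

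**Figure D4:**
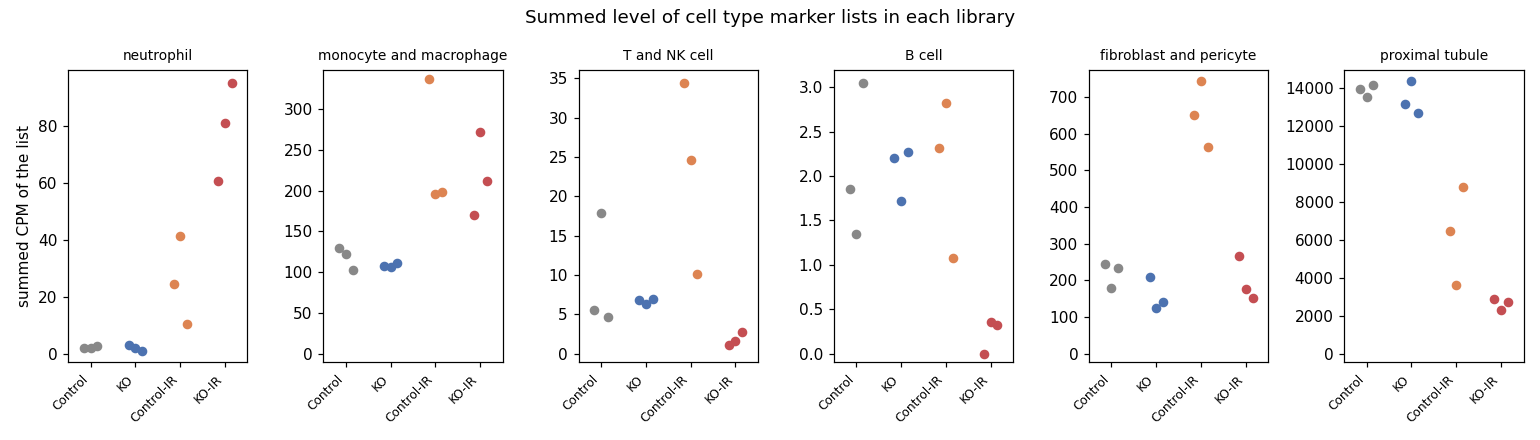
Summed CPM of 6 marker lists by library, on linear axes, by group (3 points each). Neutrophil markers were at 60.8 to 95.2 CPM in KO-IR against 10.4 to 41.5 in Control-IR, and T- and NK-cell markers at 1.03 to 2.71 against 10.1 to 34.4.

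The genes whose profiles over the 12 libraries were closest to each member were found from the root mean square distance between centred log2 CPM values, over 16167 genes, which measures likeness of the profile alone. Cxcl1 was closest to the interleukin gene Il1f6 (0.54), the cytokine-signalling suppressor Socs3 (0.68) and the cytokine Lif (0.73), against a spread of its own of 2.86. Cxcl2 was closest to the neutrophil collagenase Mmp8 (0.37), the decoy receptor Il1r2 (0.43) and Cxcl5 (0.48), and both Mmp8 and Il1r2 belong to the neutrophil marker list. Ccl2 and Ccl7 shared the complement gene C3 (0.63 and 0.73) among their closest 3, with Aldh1a2 (0.51) and the scavenger receptor Msr1 (0.65) first. Ccl5 was closest to the leukocyte surface gene Cd84 (0.46), Cxcl10 to the transcription factor Snai1 (0.36) and to Csf1 (0.44), the macrophage growth factor, and Cxcl9 to the unnamed gene Gm15354 (0.41). Cxcl16 was closest to Myo7a (0.18), Cx3cl1 to Bspry (0.16) and Cxcl12 to Pdk2 (0.23). None of the members was among the 3 closest of another member.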

How the data were processed

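Total RNA of kidney cortex was sequenced in 12 libraries, in 4 groups of 3, on an Illumina instrument. Per the labels, HISAT2 2.0.4 and the mm10 build were used, while the counting program, annotation and strand setting are not given in the sources used here. The authors deposited raw counts per Ensembl gene, of which 55141 of 55487 identifiers were paired with a symbol and 29160 had a count. One Control column is numbered 3, where no title of that group has that number, so it was used as a Control replicate without a number.

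The libraries held 12165089 to 23123693 counts. A gene with 0 counts is described against a floor of 3 counts over its group, and exact counting intervals (95%) cover counting error only. The labels do not say that libraries of a group come from separate animals, so p-values measure the spread between libraries.

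Counts were tested with edgeR 4.0.16 (filterByExpr, TMM, quasi-likelihood F test, Benjamini-Hochberg over all tested genes, adjusted p under 0.05), using the 6 libraries of each comparison and all 12 for the difference of the injury responses. Fits were checked on simulated counts. Alternatives were DESeq2 1.42.0, its size factors, total-count scaling, 2 count filters, a fit to all libraries, sex as a covariate, libraries lacking Xist, the replicate number as a block and leaving out each library. No 2 libraries of a group held the same counts. Levels per kb used merged exon lengths of GENCODE M21 on GRCm38, and 6 of 10 promoters were matched in RefSeq (GRCm38.p6). Named from each gene list were up to 4 called genes with the largest change in a comparison, and receptors and ligands of the members were added after their values were seen. The 3 genes nearest to each member used a prior count of 2. The members and lists were chosen with earlier results of these data known. The values of 1 listed gene are not reported here.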

Additional observations from a re-analysis of the deposited data

Results flagged for a closer look

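The injury response of 3 of 10 chemokine genes differed between KO and Control mice by the test of the difference itself (edgeR quasi-likelihood interaction over 12 libraries). This share is close to that over all genes, of which 30.6% were called and 16.4% called lower. The response was lower in KO mice by -3.67 on the log2 scale for Cxcl9 (adjusted p = 0.00726), by -1.45 for Cxcl16 (adjusted p = 5.60e-04) and by -1.16 for Cx3cl1 (adjusted p = 4.61e-04). For Cxcl9 the KO-IR value rests on 5 counts over 3 libraries.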

How the results depend on the processing

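The members and counts below were refitted under each alternative, and the cause of a change was not tested. In Control-IR against Control, the 7 members called higher became 4 when every library needed 10 counts and 4 in the libraries that lack Xist, and 3 to 8 with 1 library left out. The 0 called lower became 1 (Cxcl12) with DESeq2, no filter, the filter of 10 counts per library, the fit to all 12 libraries and the replicate block, which also called Ccl5 higher (2.17, adjusted p = 0.0188), and 0 to 1 with 1 library left out. In KO-IR against KO, the 4 called higher became 2 when every library needed 10 counts. In KO-IR against Control-IR, the 1 higher and 6 lower became 0 and 2 with the replicate block, and the 1 higher 0 to 1 with 1 library left out. In KO against Control, 0 lower became 1 with the replicate block (Cxcl10, -1.21) and 0 to 1 with 1 library left out. For the difference of the injury responses, 0 higher became 1 (Cxcl2) with DESeq2 and with no count filter, and 0 to 1 with 1 library left out, and the replicate block left 2 of the 3 called lower, without Cxcl9 (-2.87, adjusted p = 0.0548).

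Directions turned in some values that were not called. Cxcl1 in KO-IR against Control-IR was -0.0726 with total counts and ranged from -0.28 to 0.43 with 1 library left out. In KO against Control, Cxcl16 was -0.11 with total counts, -0.0486 with sex in the fit, -0.0606 without the Xist libraries and -0.0316 to 0.0509 with 1 library left out, and Ccl5 was 0.23 with sex in the fit, 0.22 without the Xist libraries and -1.15 to 0.0502 with 1 library left out. In the difference of the responses, Ccl2 was -1.53 in both fits that treat sex (-1.525 and -1.532) and -0.25 to 0.81 with 1 library left out, and Ccl7, at 0 in KO, was -0.39 with DESeq2 and -0.31 to 1.46 with 1 library left out.

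Total counts moved the median of all genes to 0.11 in Control-IR against Control, -0.21 in KO-IR against Control-IR, -0.14 in KO against Control and -0.10 in the difference of the responses. Over all genes, Control-IR against Control had 1778 higher, or 1066 with sex in the fit, 664 without the Xist libraries and 320 to 2298 with 1 library left out, and 1241 lower, or 1882 with DESeq2, 766 with total counts, 2344 in the fit to all libraries, 555 without the Xist libraries and 59 to 1763 with 1 library left out. KO-IR against Control-IR had 3444 higher and 3725 lower, or 685 and 998 with the replicate block. KO against Control had 142 higher and 246 lower with no count filter, 792 and 586 with the block, and 1091 and 839 without Control library 3. The difference of the responses had 2305 higher and 2648 lower, or 1396 and 1819 with the block. Same-numbered libraries deviated together at a median r of -0.02 over 12 pairs, with 1 over 0.1. Differently numbered libraries had a median r of 0.007 over 33 pairs, with 4 over 0.1. These values cannot decide whether the numbers mark pairs or a shared batch.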
